A study of Mus musculus with 8 samples.

Results

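Guanylate-binding proteins (GBPs) and immunity-related GTPases (IRGs) were examined in mouse macrophages exposed to IL-6, with and without the IL-6 receptor alpha gene Il6ra intact. The family was represented by 10 genes named beforehand, 6 GBPs (Gbp2, Gbp3, Gbp5, Gbp6, Gbp7 and Gbp9) and 4 IRGs (Irgm1, Irgm2, Igtp and Iigp1), and a gene counted as measured where a probe set of the array was annotated to it alone. By that rule 6 of the 10 were measured, Gbp3, Gbp5, Gbp7 and Gbp9 among the GBPs and Irgm1 and Iigp1 among the IRGs, out of 19938 genes measured in the same way. The other 4, Gbp2, Gbp6, Irgm2 and Igtp, were present only on probe sets annotated to several genes, and those probe sets are described apart. Probe sequences were not used here, so signal from near-identical relatives cannot be separated from a gene's own, also on probe sets annotated to 1 gene.

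The IL6raKO macrophages (4 arrays) came from mice described as IL6ralpha flox/flox LysMCre tg/wt, in which a Cre recombinase expressed from the lysozyme M locus of myeloid cells acts on loxP-flanked Il6ra. The Ctrl macrophages (4 arrays) came from IL6ralpha flox/flox mice without Cre. All 8 cultures were grown from bone marrow for 10 days with M-CSF at 10 ng/ml, starved of serum overnight and given recombinant mouse IL-6 at 50 ng/ml for 4 h, so that no array shows cells without IL-6, and only IL6raKO cells carried Cre. The labels call the arrays biological replicates without saying that each was a separate animal, so that p-values measure the spread between these 8 arrays.

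GBPs are large GTPases of the dynamin superfamily, and IRGs are smaller GTPases that are abundant in mouse cells. Interferon gamma strongly induces both, in part through the transcription factor IRF1. The proteins gather on vacuoles that hold bacteria or parasites and on bacteria in the cytosol, where they break membranes and expose bacterial products to caspase-11 and other inflammasome sensors. IL-6 acts mainly through the transcription factor STAT3. Most mouse Gbp genes lie in a group on chromosome 3 (with Gbp2, Gbp3, Gbp5 and Gbp7) and a group on chromosome 5 (with Gbp6 and Gbp9), while Irgm1, Irgm2 and Igtp lie on chromosome 11.

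Promoter sequence was available for 7 of the 10 members, as windows of 300 bases from 250 before to 50 after an annotated transcript start, taken from RefSeq on the mouse build GRCm38.p6. Gbp6, Gbp9 and Iigp1 had no window. Windows were searched on both strands for a STAT-type site (TTCNNNGAA, the same letters on both strands) and for an interferon-stimulated response element (ISRE-type: GAAA, any 2 bases and GAAA again, which reads as TTTC, any 2 bases and TTTC when it lies on the other strand). The windows of the 3 measured chromosome 3 genes and of 3 chromosome 11 genes are shown because the chromosome 3 genes averaged lower in IL6raKO macrophages and the chromosome 11 genes did not. Each line runs 5' to 3' on the gene's own strand, and capitals mark the motif matches.
Gbp5, chr3:142496684-142496983, + strand: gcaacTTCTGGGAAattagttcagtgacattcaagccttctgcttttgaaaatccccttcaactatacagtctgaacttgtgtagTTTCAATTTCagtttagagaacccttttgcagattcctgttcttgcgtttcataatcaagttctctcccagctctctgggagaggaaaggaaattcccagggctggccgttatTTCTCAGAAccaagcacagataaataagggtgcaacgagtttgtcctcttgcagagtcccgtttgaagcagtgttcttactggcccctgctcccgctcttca
Gbp7, chr3:142530086-142530385, + strand: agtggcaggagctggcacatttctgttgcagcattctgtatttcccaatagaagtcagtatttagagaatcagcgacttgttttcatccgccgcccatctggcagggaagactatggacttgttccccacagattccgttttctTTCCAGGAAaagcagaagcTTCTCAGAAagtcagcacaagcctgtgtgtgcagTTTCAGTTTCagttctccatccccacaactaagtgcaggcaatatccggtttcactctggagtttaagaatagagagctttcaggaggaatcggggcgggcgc
Gbp3, chr3:142559794-142560093, + strand: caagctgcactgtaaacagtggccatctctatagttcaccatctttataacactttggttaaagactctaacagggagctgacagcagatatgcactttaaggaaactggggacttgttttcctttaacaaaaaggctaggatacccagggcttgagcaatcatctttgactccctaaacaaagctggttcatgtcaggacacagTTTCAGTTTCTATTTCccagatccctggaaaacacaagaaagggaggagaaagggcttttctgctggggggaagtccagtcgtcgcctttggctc
Irgm1, chr11:48871371-48871670, - strand: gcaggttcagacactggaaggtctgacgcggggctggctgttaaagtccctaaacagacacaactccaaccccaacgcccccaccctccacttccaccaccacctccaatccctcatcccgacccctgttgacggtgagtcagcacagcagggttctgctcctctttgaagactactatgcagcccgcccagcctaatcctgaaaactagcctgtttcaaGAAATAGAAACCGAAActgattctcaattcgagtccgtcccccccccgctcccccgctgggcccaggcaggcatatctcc
Irgm2, chr11:58214727-58215026, + strand: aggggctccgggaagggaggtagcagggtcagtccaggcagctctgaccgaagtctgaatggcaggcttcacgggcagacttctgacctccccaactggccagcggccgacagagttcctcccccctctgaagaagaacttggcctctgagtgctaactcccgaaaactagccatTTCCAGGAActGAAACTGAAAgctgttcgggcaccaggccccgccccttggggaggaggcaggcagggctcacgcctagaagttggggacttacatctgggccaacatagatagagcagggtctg
Igtp, chr11:58199306-58199605, + strand: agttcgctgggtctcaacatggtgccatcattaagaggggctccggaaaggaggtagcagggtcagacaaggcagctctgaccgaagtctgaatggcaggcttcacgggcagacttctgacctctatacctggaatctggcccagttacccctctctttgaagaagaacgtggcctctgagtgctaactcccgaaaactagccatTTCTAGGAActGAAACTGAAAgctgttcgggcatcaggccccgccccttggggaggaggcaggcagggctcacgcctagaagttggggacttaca

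An ISRE-type match was found for 7 of the 7 members with a window, against 3.44% of all 32851 promoter windows in the RefSeq table. A member counted where any of its windows held a match, while the shares of all windows count each window singly. In Gbp3 and in Irgm1, 2 such matches overlapped each other, and the second annotated start of Gbp3 had no match of either kind. A STAT-type match was found for 4 members, Gbp5, Gbp7, Irgm2 and Igtp, against 8.3% of all windows, and both kinds together stood in 0.454% of all windows. No STAT-type match overlapped an ISRE-type match. Gbp5 and Gbp7 had 2 STAT-type matches each. The windows of Irgm2 and Igtp held the same pair of motifs in the same order, though the letters of their STAT-type sites differed. They also shared an identical run of 61 bases, which began after both motifs and held neither. A match is a description of the letters in these windows and not evidence that a factor binds there. Among the genes with both kinds of match, Gbp5 and Gbp7 averaged lower in IL6raKO macrophages and the joint probe set of Irgm2 and Igtp slightly higher.

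**Figure D1:**
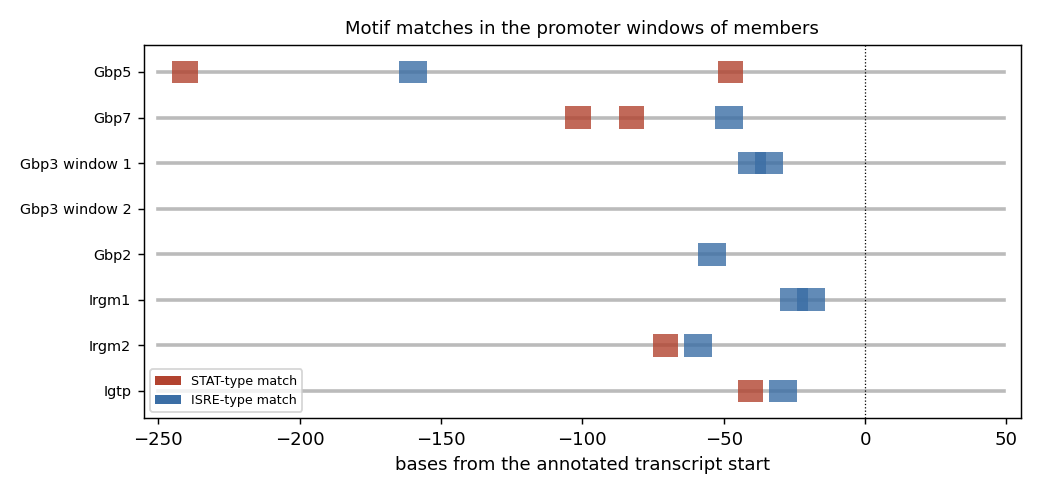
Positions of motif matches in the promoter windows of 7 members, in bases from the annotated transcript start (0, dotted line). Red blocks are STAT-type and blue blocks ISRE-type matches. Gbp5 and Gbp7 hold 2 STAT-type matches and 1 ISRE-type match each, and the second window of Gbp3 holds none.

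The cells carried the markers of macrophages, and the targeted gene was lower in every IL6raKO array. Of 10 macrophage markers 9 were measured, with mean log2 expression between 9.07 and 13.12. Il6ra stood at 7.75, 8.10, 7.91 and 7.92 in the 4 IL6raKO arrays, against 8.43, 8.40, 8.40 and 8.45 in the 4 Ctrl arrays, on the log2 scale. This left Il6ra at 70.6% of the Ctrl level (difference -0.50, limma adjusted p = 0.0607 over all genes). Ctrl replicate 4 stood apart on the first principal component (21.5, other arrays -6.60 to 4.82), so results are also given without it. Across all genes 6 of 19938 (0.0301%) passed at a limma adjusted p under 0.05, all 6 lower in IL6raKO, with 0 without Ctrl replicate 4 and 0 to 1 with any array left out, and the median difference over all genes was -0.01.

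No member passed the test over all genes, but the 3 measured Gbp genes of chromosome 3 were each lower on average in IL6raKO macrophages, by 0.28 to 0.38 on the log2 scale, which left them at 76.7% to 82.4% of the Ctrl level. The GBP of chromosome 5 and both measured IRGs stood between 0.08 and 0.11 above Ctrl. In limma 0 of the 6 measured members had an adjusted p under 0.05, where 0.0301% of all genes did. At an unadjusted p under 0.05, 3 of the 6 were lower in IL6raKO, where 4.54% of all genes were, and 0 were higher, where 2.74% of all genes were. These 3 were the same genes with each array left out in turn, counts added after the data were seen, and without Ctrl replicate 4 they compare with 3.62% of all genes. The median difference of the 6 was -0.10.

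Gbp5, a GBP linked to activation of the NLRP3 inflammasome in mouse macrophages, read 5.02, 5.32, 5.05 and 5.23 in the IL6raKO arrays, against 5.68, 5.39, 5.40 and 5.69 in the Ctrl arrays. Every IL6raKO array was below every Ctrl array, though the gap between IL6raKO replicate 2 and Ctrl replicate 2 was narrow. The difference was -0.38 (SE 0.10, 95% confidence interval -0.59 to -0.17), with a limma adjusted p of 0.518 over all genes. Ctrl replicates 1 and 4 were well above Ctrl replicates 2 and 3, so that the Ctrl spread (SD 0.17, n = 4) was of the same order as that of IL6raKO (SD 0.14, n = 4).

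Gbp7, a GBP known in mouse macrophages for promoting assembly of the phagocyte oxidase, read 6.44, 6.34, 6.45 and 6.40 in the IL6raKO arrays, against 6.85, 6.75, 6.43 and 6.83 in the Ctrl arrays. The IL6raKO arrays lay close together, and the groups overlapped only because Ctrl replicate 3 lay among them. The difference was -0.31 (SE 0.09, 95% confidence interval -0.50 to -0.11), with a limma adjusted p of 0.566 over all genes. Without Ctrl replicate 3 it was -0.40 (limma adjusted p = 0.169 over all genes), the lowest adjusted p of any member in any fit with an array left out.

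Gbp3, which lies beside Gbp7 in the chromosome 3 group, read 7.20, 7.23, 7.19 and 6.79 in the IL6raKO arrays, against 7.40, 7.48, 7.27 and 7.36 in the Ctrl arrays. The groups did not overlap, but IL6raKO replicate 4 was far below the other IL6raKO arrays, which came close to Ctrl replicate 3. The difference was -0.28 (SE 0.10, 95% confidence interval -0.49 to -0.06), with a limma adjusted p of 0.625 over all genes. Without IL6raKO replicate 4 it was -0.17 (limma adjusted p = 0.686 over all genes).

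The IL6raKO values of Gbp3 and Gbp5 lay entirely below the Ctrl values, so 2 of the 6 members did not overlap in that direction, where 2.37% of all genes did not. None of the 6 lay entirely above, where 2.07% of all genes did. In an exact two-sided permutation test over the 70 splits of the arrays into 4 and 4, both reached p = 0.0286, the smallest that 4 against 4 can give and one that 4.44% of all genes reached, and Gbp7 reached p = 0.0857. After Benjamini-Hochberg adjustment over all genes these exact permutation p-values were 0.644 for Gbp3 and Gbp5 and 0.734 for Gbp7.

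**Figure D2:**
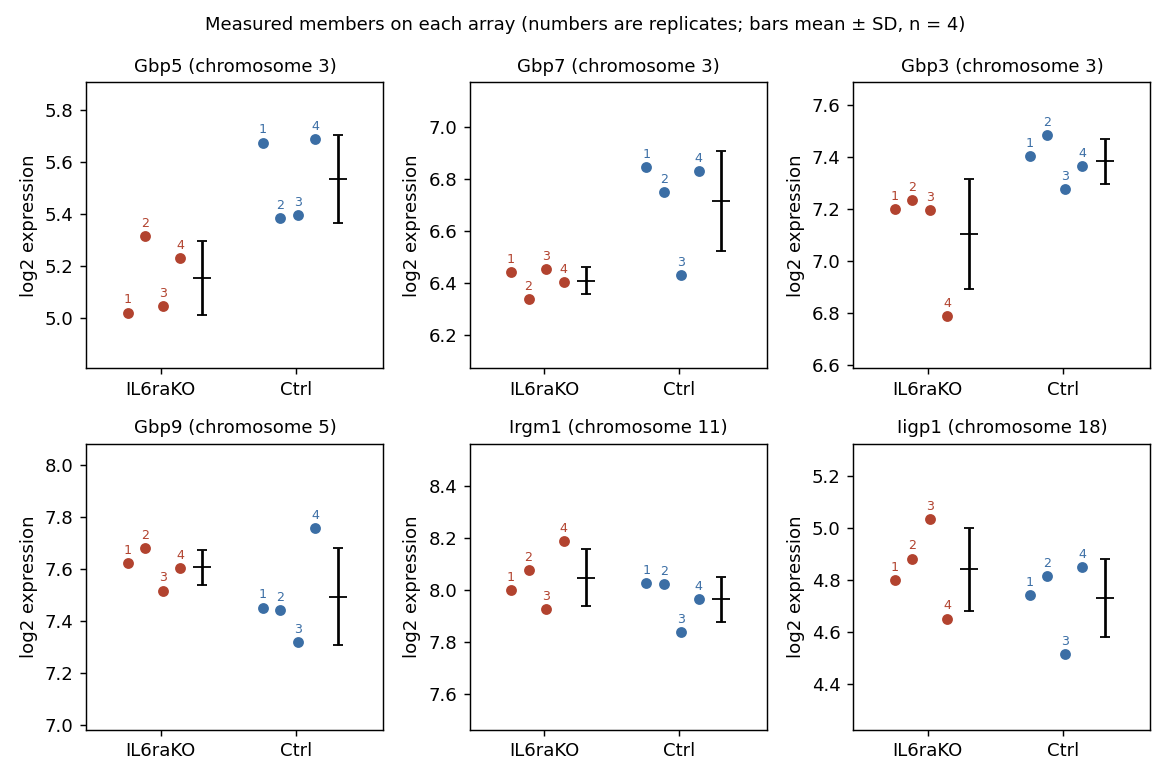
Log2 expression of the 6 measured members on each array, IL6raKO (red) beside Ctrl (blue), with replicate numbers above the points and bars for mean ± SD (n = 4). All panels span the same log2 range. IL6raKO values lie below all Ctrl values for Gbp5 and Gbp3, and Ctrl replicate 3 is the lowest Ctrl array in every panel but that of Gbp5.

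Gbp9, of the chromosome 5 group, averaged higher in IL6raKO macrophages. It read 7.62, 7.68, 7.52 and 7.61 in the IL6raKO arrays, against 7.45, 7.44, 7.32 and 7.76 in the Ctrl arrays. Ctrl replicate 4 was the highest of all 8 arrays and the other Ctrl arrays were the lowest. The difference was 0.11 (SE 0.09, 95% confidence interval -0.08 to 0.31), with a limma adjusted p of 0.797 over all genes. Without Ctrl replicate 4 it was 0.20 (limma adjusted p = 0.733 over all genes, unadjusted p under 0.05), and without Ctrl replicate 3 it was 0.06.

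Irgm1, a regulatory IRG that governs the other IRGs and autophagy in mouse macrophages, read 8.00, 8.08, 7.93 and 8.19 in the IL6raKO arrays, against 8.03, 8.02, 7.84 and 7.97 in the Ctrl arrays. IL6raKO replicates 2 and 4 were above every Ctrl array, and Ctrl replicate 3 was the lowest of all 8. The difference was 0.08 (SE 0.07, 95% confidence interval -0.08 to 0.25), with a limma adjusted p of 0.827 over all genes. The lower end of that interval is above the estimated differences of Gbp3, Gbp5 and Gbp7, though the intervals of Irgm1 and Gbp3 overlap. The difference between the genes was not tested.

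Iigp1, also known as Irga6 and encoded on chromosome 18, is an effector IRG that coats the vacuole of Toxoplasma in mouse cells. It read 4.80, 4.88, 5.03 and 4.65 in the IL6raKO arrays, against 4.74, 4.81, 4.51 and 4.85 in the Ctrl arrays, and the groups overlapped. The difference was 0.11 (SE 0.10, 95% confidence interval -0.10 to 0.32), with a limma adjusted p of 0.821 over all genes. Its signal was below the array medians of 6.31 to 6.35, as was that of Gbp5, and RMA, the method that summarised the probes, can compress differences of dim probe sets.

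The 4 members without a probe set of their own were read jointly with relatives, and how much each gene contributes to such a probe set cannot be told. The probe set annotated to Gbp2 and Gbp2b read 7.35, 7.57, 7.48 and 7.38 in the IL6raKO arrays, against 7.71, 7.61, 7.73 and 7.55 in the Ctrl arrays. The groups overlapped narrowly, with IL6raKO replicate 2 above Ctrl replicate 4. The difference was -0.21 (SE 0.07, limma adjusted p = 0.822 over all 35556 probe sets). Both genes lie in the chromosome 3 group, and Gbp2 loads onto parasite vacuoles in mouse cells.

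Irgm2 and Igtp, also called Irgm3, are regulatory IRGs with near neighbouring genes. Their joint probe set read 8.51, 8.47, 8.48 and 8.49 in the IL6raKO arrays, against 8.46, 8.34, 8.50 and 8.42 in the Ctrl arrays. The IL6raKO arrays were tightly grouped near the top of the Ctrl range, with IL6raKO replicate 1 just above the highest Ctrl array. The difference was 0.06 (SE 0.06, limma adjusted p = 0.893 over all probe sets). Gbp6 was read only on a probe set annotated to 6 genes of the chromosome 5 group, which differed by 0.01 (SE 0.08, limma adjusted p = 0.991 over all probe sets).

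Of 22 further GBP and IRG genes listed, 9 were measured and 0 passed in limma over all genes, with 1, Gbp8, at an unadjusted p under 0.05. Gbp2b, the mouse Gbp1 of the chromosome 3 group, differed by -0.07 (95% confidence interval -0.27 to 0.12), and its values of 4.41 to 4.80 in IL6raKO arrays covered those of 4.57 to 4.80 in Ctrl arrays almost entirely. Gbp8, of the chromosome 5 group, read 5.63, 5.22, 5.21 and 5.16 in the IL6raKO arrays, against 5.12, 5.14, 5.07 and 4.81 in the Ctrl arrays. Every IL6raKO array of Gbp8 was above every Ctrl array, opposite to Gbp5 and Gbp3, as was so for 2.07% of all genes. The difference of Gbp8 was 0.27 (SE 0.11, limma adjusted p = 0.669 over all genes). Gbp4 and Gbp11, of the same group as Gbp8, differed by -0.02 and 0.11. Among the IRGs, Gm12250, which is Irgb10 and opens bacteria to inflammasome sensors, differed by 0.09, Gm12185 by 0.10, Gm4951 by 0.05, Irgc1 by -0.02 and Irgq by -0.11. Their limma adjusted p-values over all genes lay between 0.771 and 0.970. The median difference of the 9 genes was 0.05. On average Gbp2b, Gbp4, Gbp8, Gbp11, Gm12185 and Irgc1 read below the array medians, where RMA can compress differences.

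**Figure D3:**
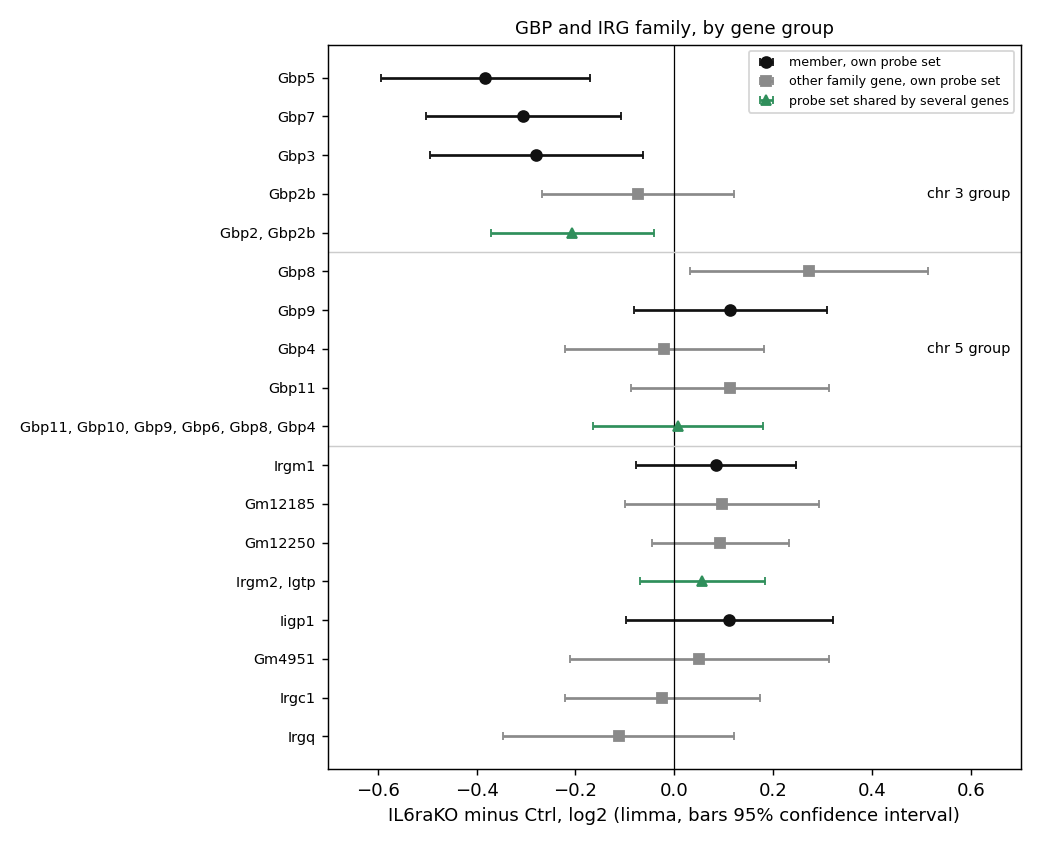
Difference of IL6raKO minus Ctrl on the log2 scale, with 95% confidence intervals from limma, for members (black circles), other family genes (grey squares) and the 3 probe sets that a member shares with other genes (green triangles). Gbp5, Gbp7, Gbp3 and the Gbp2 and Gbp2b probe set lie below 0 with intervals that do not reach it, Gbp8 lies above 0 in the same way, and the intervals of the IRGs shown include 0.

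The direction on chromosome 3 was not shared by all genes there. The targeted gene Il6ra also lies on chromosome 3, and whether this bears on the Gbp values was not tested. In RefSeq gene order on GRCm38.p6, Gbp5, Gbp7, Gbp3 and Gbp2b follow each other among the measured genes, and the 6 nearest measured genes on either side of the group, chosen by position after the values of the members were seen, ranged from -0.25 to 0.13. The gene that comes next after the group is Kyat3, a kynurenine aminotransferase. Kyat3 was lower in every IL6raKO array than in every Ctrl array and averaged 6.12 in IL6raKO and 6.37 in Ctrl (difference -0.25, SE 0.09, limma adjusted p = 0.652 over all genes). Gtf2b, the general transcription factor gene after it, was higher in every IL6raKO array (9.16 in IL6raKO and 9.03 in Ctrl, difference 0.13, limma adjusted p = 0.707 over all genes). Of all genes, 2.37% lay entirely below Ctrl in this way and 2.07% entirely above. The 6 flanking genes of the chromosome 5 group ranged from -0.03 to 0.12.

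Kyat3 also appeared among the genes whose profile over the 8 arrays was most like that of Gbp5. Likeness was measured as the root-mean-square difference between log2 profiles centred on their own means, over 8 arrays and leaving out the GBP and IRG families. The 5 closest genes were Gm5800, Kyat3, BC048679, Kcnk5, a potassium channel gene, and Robo3, a receptor for axon guidance, at 0.09 to 0.11, where the profile of Gbp5 itself had a root mean square of 0.23. For the mean profile of the 6 measured members the closest were Ap4m1, Fgf22, Gbgt1, Padi3 and Crybg2, at 0.03 to 0.04 against 0.10 for the mean profile itself. These are the nearest of 19938 genes by choice, and no test was made.

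The members shared a low array within the Ctrl group. Ctrl replicate 3 was the lowest Ctrl array for 5 of the 6 members, while it was the lowest Ctrl array for 20.5% of all genes. The exception was Gbp5, for which Ctrl replicate 2 was lowest by a narrow margin. Among the 9 other family genes Ctrl replicate 3 was lowest for 3 and highest for 4. Ctrl replicate 4 was the highest Ctrl array for 3 of the 6 members, against 35.2% of all genes. In IL6raKO no array was lowest for more than 2 of the 6 members.

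With each array left out in turn, Gbp5 ranged from -0.44 to -0.33, Gbp7 from -0.40 to -0.26 and Gbp3 from -0.32 to -0.17. Gbp9 ranged from 0.06 to 0.20, Irgm1 from 0.04 to 0.12 and Iigp1 from 0.04 to 0.17. None of the 6 changed direction and none passed over all genes in these 8 fits. Without Ctrl replicate 4, the array that stood apart, Gbp5 differed by -0.33, Gbp7 by -0.27 and Gbp3 by -0.28.

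**Figure D4:**
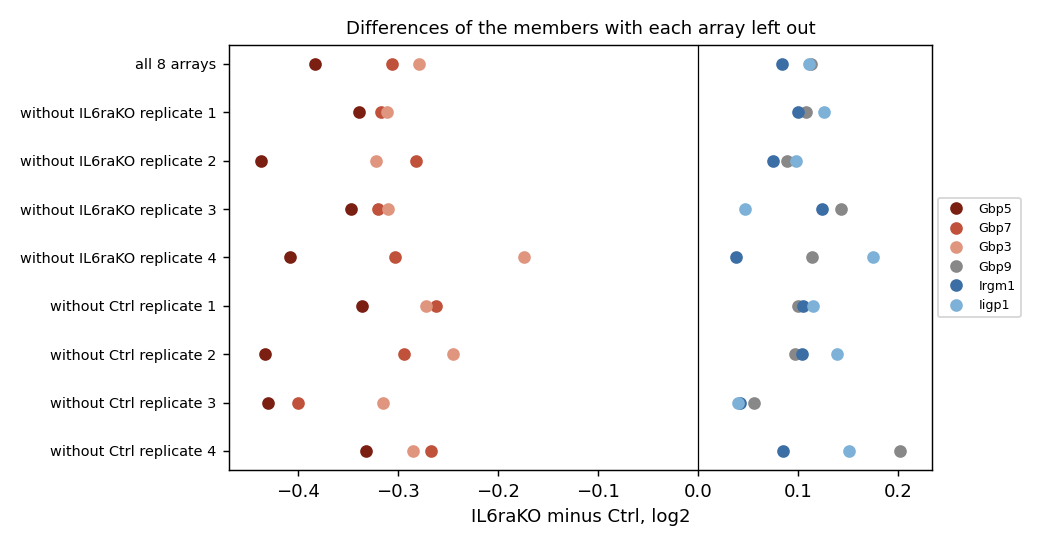
Differences of IL6raKO minus Ctrl on the log2 scale for the 6 measured members, with all 8 arrays and with each array left out. Gbp5, Gbp7 and Gbp3 stay below 0 in each row, and Gbp3 comes closest to it, at -0.17, without IL6raKO replicate 4.

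Upstream of the family, no listed gene of interferon signalling passed the test. Of 22 listed genes 21 were measured, 0 had an adjusted p under 0.05 in limma over all genes, 1 had an unadjusted p under 0.05, and the median difference was -0.04. Irf1, the transcription factor needed for much of the interferon induction of Gbp genes, had the lowest p of the list. Irf1 read 8.01, 8.10, 7.83 and 7.91 in the IL6raKO arrays, against 8.10, 8.17, 8.21 and 8.26 in the Ctrl arrays, and the groups met at IL6raKO replicate 2 and Ctrl replicate 1. Its difference was -0.22 (SE 0.07, limma adjusted p = 0.616 over all genes), while a second, dimmer Irf1 probe set differed by 0.00. Irf7 differed by -0.15, Usp18, an inhibitor of the type I interferon receptor, by 0.12 and Irf2 by -0.07, with limma adjusted p-values of 0.725, 0.773 and 0.819 over all genes.

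The interferon gamma receptor chains and the cytokine itself, named as known examples after their values were seen, were close between the groups. Ifngr1 differed by 0.01 (95% confidence interval -0.12 to 0.14), Ifngr2 by 0.03 (95% confidence interval -0.10 to 0.16) and Jak2 by 0.04 (95% confidence interval -0.10 to 0.18). Ifng, which macrophages make little of, read 5.87 to 6.26 in IL6raKO arrays and 5.97 to 6.14 in Ctrl arrays.

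The machinery that loads these GTPases onto membranes did not pass either. Autophagy conjugation proteins place IRGs and GBPs on vacuoles, prenyl transferases and their partners modify some GBPs at the end of the protein, and galectins mark broken vacuoles. Of the 19 genes, 19 were measured, 0 passed in limma over all genes, 0 had an unadjusted p under 0.05 and the median difference was 0.00. Atg12, a ubiquitin-like autophagy protein, differed by 0.15, Fntb, the beta subunit of farnesyltransferase, by 0.15, Rce1, a protease that trims prenylated proteins, by -0.17, and Lgals8, galectin-8, by -0.08. Their limma adjusted p-values over all genes lay between 0.701 and 0.777. Every IL6raKO array was above every Ctrl array for Fntb and below for Lgals8, as was so for 2.07% and 2.37% of all genes.

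Among caspase-11 and inflammasome genes, on which GBPs act in infected cells, 1 of 12 passed over all genes, where 0.0301% of all genes did. The list was chosen with earlier results of these data known, so its count is not independent of them. At an unadjusted limma p under 0.05, 1 was lower, where 4.54% of all genes were, and 1 was higher, where 2.74% were. Casp4, which encodes mouse caspase-11, fell by 0.59 on the log2 scale (SE 0.06, limma adjusted p = 0.0276 over all genes), and read 9.90, 9.94, 9.88 and 9.94 in the IL6raKO arrays, against 10.63, 10.50, 10.43 and 10.44 in the Ctrl arrays. With any 1 array left out its difference lay between -0.61 and -0.54, and the call was lost in all 8 fits (limma adjusted p 0.0528 to 0.123 over all genes). The bacterial sensor genes Naip2 and Naip5 each differed by 0.15 and the cytokine Il18 by -0.18, with limma adjusted p-values between 0.669 and 0.725 over all genes. Every IL6raKO array was below every Ctrl array for Casp4 and above for Naip2, as was so for 2.37% and 2.07% of all genes. The median of the 12 was -0.03, beside -0.01 over all genes.

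**Figure D5:**
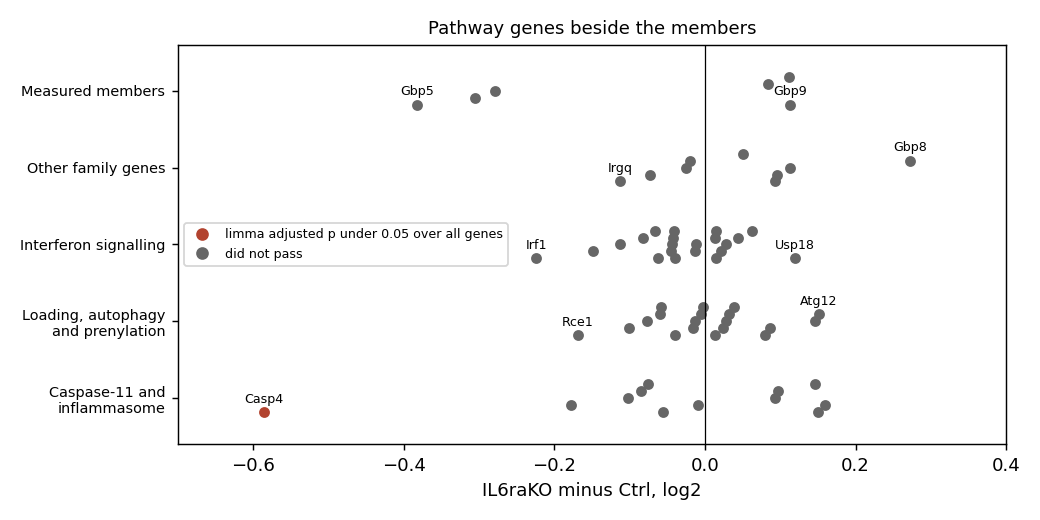
Differences of IL6raKO minus Ctrl on the log2 scale for the 6 measured members, 9 other family genes, 21 interferon signalling genes, 19 genes of loading, autophagy and prenylation and 12 caspase-11 and inflammasome genes. Each point is a gene, its height within a row has no meaning, and red marks a limma adjusted p under 0.05 over all genes, which Casp4 alone reached.

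Markers of other cell types were compared because T and NK cells make interferon gamma and because fewer cells of a type and less RNA per cell cannot be told apart in bulk RNA. Of 11 measured T and NK cell markers 9 were lower on average in IL6raKO, where 10803 of all 19938 genes were. The summed linear level of these markers was 561 to 619 in IL6raKO arrays and 600 to 626 in Ctrl arrays, and their part in the Gbp differences was not tested. Of 12 mast cell and basophil markers 11 were lower, with sums of 768 to 1250 in IL6raKO arrays and 942 to 1648 in Ctrl arrays, the highest in Ctrl replicate 4. With the mean of those markers as a covariate Gbp5 differed by -0.33, Gbp7 by -0.31 and Gbp3 by -0.35, with a limma adjusted p of 0.890 over all genes for each of the 3. The median difference was -0.17 for 7 B cell markers, all 7 lower, -0.06 for 10 neutrophil markers, -0.06 for 8 dendritic cell markers, -0.11 for 6 stromal markers and -0.01 for the 9 macrophage markers. In these lists 0 markers passed over all genes, and the arrays have no true zero level.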

How the data were processed

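Each of 8 macrophage cultures gave biotin-labelled RNA for 1 Affymetrix array, as the labels' protocols say. The authors turned the scans into log2 values per probe set with RMA, which subtracts background, equalises the arrays' distributions and summarises probes, in R 2.13.1, per the submitters' processing notes, and the log2 scale was read from the range of 1.96 to 14.2. The genome build is not given in the sources used here. Of 35556 probe sets, 21789 had 1 gene symbol in GEO's platform annotation, 1621 had several and 12146 none. The identifiers of 21698 were found in the RefSeq table, with 0 symbols changed, and the brightest probe set per gene gave 19938 genes.

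IL6raKO minus Ctrl was fitted with limma 3.58.1 (lmFit, eBayes) in R 4.3.3, all 8 arrays, no covariate, two-sided, Benjamini-Hochberg over all genes. Shared probe sets came from a fit of all 35556 probe sets. The procedure was tested on simulated data. Members, lists, alternatives and the rule for named genes (all members, all measured relatives, Il6ra, up to 4 genes of lowest p in each pathway list, and the 5 nearest profiles) were chosen with earlier results of these data known. Precision is limited by the number of arrays. No 2 arrays were alike beyond noise (smallest SD of a log2 difference over genes 0.16). The labels do not say whether equal replicate numbers pair the arrays, and the main fit used no pairing.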

Additional observations from a re-analysis of the deposited data

Results flagged for a closer look

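In sets of 4 values, 1 per gene and genotype, an array far from the other 3 was found for 5 of 64 sets, where chance gives about 3.2. Gbp3 read 6.79 in IL6raKO replicate 4 and between 7.19 and 7.23 in the other IL6raKO arrays. Gbp8 read 5.63 in IL6raKO replicate 1 and between 5.16 and 5.22 in the others. Fntb, the farnesyltransferase subunit, read 5.79 in IL6raKO replicate 2 and between 5.59 and 5.62 in the others. In Ctrl replicate 2, Gm12250 read 6.48 (other Ctrl arrays 6.63 to 6.66) and Atg12 read 7.43 (other Ctrl arrays 7.67 to 7.69).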

How the results depend on the processing

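The count of members that passed over all genes was 0 under each alternative that adjusts over all genes, and 3 at an unadjusted p under 0.05, where 1452 genes had one. The alternatives gave 110 differences for the 6 measured members, counted for each member under each setting, and no member passed in any of them. In 38 of these 110 cases the difference is the same by construction (other variance model, block, filter, probe set rule or test), and in the other 72 it kept its direction. Outside the fits with an array left out it ranged from -0.41 to -0.33 for Gbp5, -0.33 to -0.29 for Gbp7 and -0.35 to -0.28 for Gbp3. Gbp5 and Iigp1 were too dim to be tested among genes above the median level or above the 25th percentile, so no median of the members was computed there.

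The count over all genes, 6, was 22 with a trended and robust variance, 11 among genes above the median level and 11 above the 25th percentile, 3 after quantile normalization was applied again, 0 with all probe sets tested, 0 with the mast cell and basophil covariate and 0 with the replicate number as a block. Leaving out an array gave 0 to 1, with the 1 call seen when IL6raKO replicate 1 or 2 was dropped and 0 in the other 6 fits. Fewer arrays lower the power of those fits, and otherwise the cause was not tested. Arrays of equal replicate number did not deviate together (correlations of deviations over genes -0.01 to 0.04). The block left the members' differences as they were and their adjusted p at 0.658 or higher. Casp4 also lost its call with the block, with the covariate and with all probe sets tested (limma adjusted p 0.161, 0.114 and 0.258), and its exact permutation p adjusted over all genes was 0.644.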

Other observations

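Other interferon-inducible GTPases were read on probe sets shared by several genes. None of these holds a member, and all 8 were higher on average in IL6raKO, where 45% of all 1621 shared probe sets were. They are not independent, since several hold the same genes. The pair of probe sets for 9930111J21Rik1 and 9930111J21Rik2 differed by 0.12 and 0.14, the pair for Tgtp1 and Tgtp2 by 0.13 and 0.10, that for Olfr56 and Ifi47 by 0.19, and 3 with Gvin1 and Gm4070 by 0.02 to 0.15. Their limma adjusted p-values over all probe sets were 0.833 or higher, and the one at 0.14 alone had an unadjusted p under 0.05 (0.0456). The chromosome 3 Gbp genes thus stood on the other side of 0 from these relatives, and that contrast was not tested.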
